A study of Mus musculus with 170 samples.

Results

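Visceral adipocytes, the lipid-storing cells of abdominal fat, were compared between old and young mice across all genes. The adipocyte libraries were taken by their titles and comprised 5 old and 3 young libraries, 8 of the 170 libraries of a survey of 23 sorted cell types at both ages. A library titled as B cells carries adipocyte tags; it was left out by its title, and Adipoq was at most 2.96 CPM in every B cell library. Old animals were 22 to 24 months and young animals 2 months of age. All were of C57/Bl6 background and, per the labels, healthy. The cells had been isolated by fluorescence-activated sorting from the fat of 5 pooled animals per library, so that the old libraries stood for 25 animals and the young ones for 15, and a p-value here measures the spread between pools. Age, cohort and body weight cannot be told apart in this design, since each age came from its own animals. Sequencing was from the 3′ end of poly(A) RNA, and gene levels are CPM, a gene's counts relative to the TMM-scaled size of its library. They compare a gene between libraries, not genes with each other. Differences are log2 fold changes of old over young with a standard error (SE). The test was edgeR's quasi-likelihood test, Benjamini-Hochberg adjusted over every gene tested, at a threshold of 0.05. A gene past it is said to be higher or lower in old adipocytes. List members beyond the 4 with the lowest adjusted p, and those given as not passing, were chosen after their values were seen.

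White adipocytes take up fatty acids and glucose, build triglyceride in a single large droplet and release it again as fatty acids when catecholamines signal. They also secrete hormones, the adipokines, among them leptin and adiponectin. Fat holds many other cells, chiefly progenitors, endothelial cells, mesothelial cells on its surface and macrophages, whose number in visceral fat is known to change with age and body weight.

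The adipocyte markers were present in every library. Adipoq, for adiponectin, had 3451, 3652, 3615, 3793 and 1248 CPM in old adipocytes, against 6341, 7334 and 6148 CPM in young adipocytes. Plin1, which coats the lipid droplet, had 514, 456, 553, 538 and 207 CPM in old adipocytes, against 833, 582 and 564 CPM in young adipocytes. Cidec, which fuses droplets, had 2991, 3014, 3509, 3723 and 1064 CPM in old adipocytes, against 4969, 3698 and 3459 CPM in young adipocytes. All 3 were lowest in old replicate 5, which lay apart from the other old libraries for each of them. Its Spearman correlations with the other old libraries were 0.871 to 0.907, against 0.946 to 0.959 among those 4 and 0.931 to 0.942 among the young ones. Totals were 2675225 to 3467844 counts in old and 2068616 to 2290328 counts in young libraries. Results are therefore given with old replicate 5 and, where that matters, without it. T cell markers, the CD8 genes among them, were found in all 8 libraries, summing to 216 to 294 CPM in old libraries and 241 to 329.6 CPM in young libraries over the list. This and later sums cover all members of a list, also those too low to be tested, here Cd4. Of the 7 tested, 0 passed by edgeR's quasi-likelihood test or by DESeq2 and 0 had an unadjusted p under 0.05. Conversely, the naive CD8 T cell libraries of the series held 220 to 304 CPM of Adipoq on unscaled totals, and the highest value in any library of the remaining non-adipocyte types was 4.46. Whether RNA or reads passed between these libraries was not tested.

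**Figure D1:**
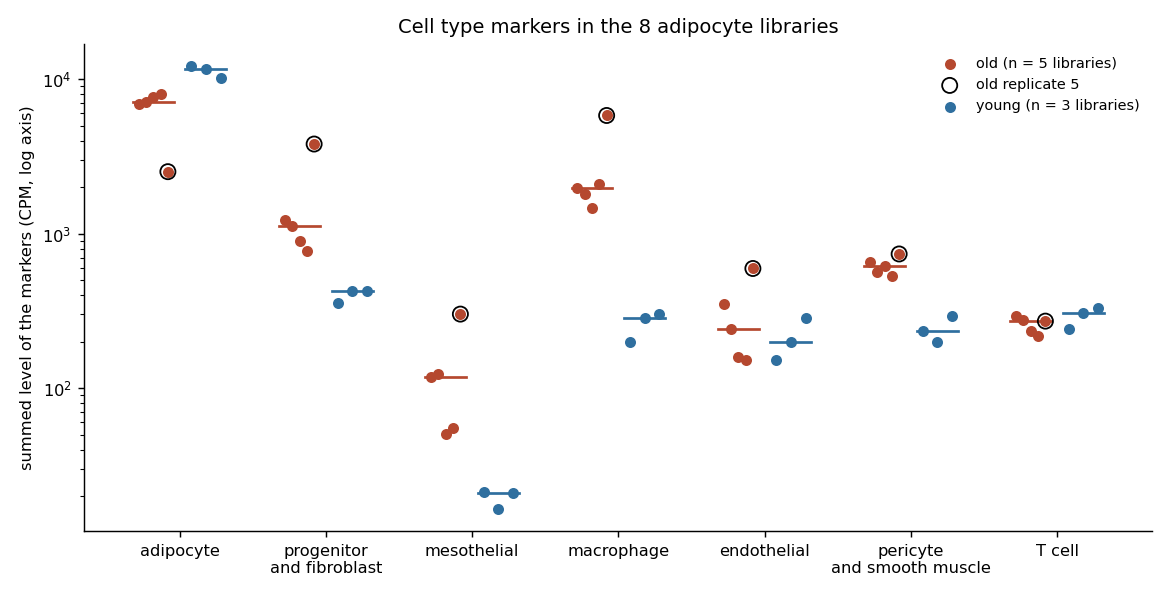
Summed level of marker genes (CPM, log axis) in each of the 5 old (left, red) and 3 young (right, blue) adipocyte libraries, by cell type. Horizontal lines are medians and the ringed point is old replicate 5, which had the lowest adipocyte sum (2519 CPM) and the highest macrophage sum (5821 CPM).

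Markers of other cells of fat differed between the ages. Of 12 macrophage markers 10 were higher and 0 lower in old libraries, with a median log2 fold change of 3.40, and none was at 0 in all libraries. Their summed level was 1471 to 5821 CPM in old libraries and 199.7 to 304 CPM in young libraries, with 5821 CPM in old replicate 5, against at most 2107 CPM in the other old libraries. Of 9 measured progenitor and fibroblast markers 4 were higher, summing to 774 to 3803 CPM in old libraries and 357 to 425 CPM in young libraries. Of 8 measured mesothelial markers 4 were higher, summing to 50.9 to 302 CPM in old libraries and 16.5 to 21.3 CPM in young libraries; Pi16, Krt8 and Muc16 were too low to be measured. Both counts were 1 without young replicate 2, and that of progenitor genes was 6 without old replicate 5. Of 8 endothelial markers 0 passed by edgeR's quasi-likelihood test or by DESeq2 and 0 had an unadjusted p under 0.05, with sums of 153 to 595 CPM in old libraries and 153 to 283 CPM in young libraries. In a bulk library, fewer cells of a type and less RNA per cell cannot be told apart, so these sums do not count cells. Their part in the results that follow was not tested.

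Of the macrophage genes, Lyz2, lysozyme, had 1089, 898, 785, 1165 and 3073 CPM in old adipocytes, against 91.9, 120.0 and 146 CPM in young adipocytes (log2 fold change 3.55 ± 0.48 (SE), adjusted p = 0.00119). Cd68, a lysosomal protein of phagocytes, had 168, 145, 129.8, 178 and 437 CPM in old adipocytes, against 14.8, 16.99 and 22.8 CPM in young adipocytes (log2 fold change 3.53 ± 0.44 (SE), adjusted p = 0.000776). Every old library lay above every young one for both, and old replicate 5 held more than any other. Of the mesothelial genes, the uroplakin Upk3b had 30.2, 38.8, 12.7, 13.9 and 78.00 CPM in old adipocytes, against 3.28, 1.06 and 1.94 CPM in young adipocytes (log2 fold change 4.03 ± 0.74 (SE), adjusted p = 0.00559) and Gpm6a, a membrane glycoprotein, had 12.99, 13.6, 8.98, 7.66 and 43.4 CPM in old adipocytes, against 2.19, 1.59 and 0.486 CPM in young adipocytes (log2 fold change 3.60 ± 0.77 (SE), adjusted p = 0.0121). Of the progenitor genes, Dcn, for the matrix proteoglycan decorin, had 702, 693, 471, 335 and 2712 CPM in old adipocytes, against 165, 236 and 224 CPM in young adipocytes (log2 fold change 2.24 ± 0.61 (SE), adjusted p = 0.0348), with old replicate 5 several times above the rest. Dpp4, a surface peptidase of early progenitors, had 33.4, 34.8, 26.6, 25.2 and 80.8 CPM in old adipocytes, against 13.7, 5.31 and 11.2 CPM in young adipocytes (log2 fold change 1.99 ± 0.45 (SE), adjusted p = 0.0158). Leaving out single libraries ended the call of Dcn without young replicate 1, 2 or 3 (adjusted p = 0.105 to 0.135), Dpp4 without young replicate 2 or 3 (adjusted p = 0.0552 to 0.0954) and Gpm6a without young replicate 2 or 3 (adjusted p = 0.0579 to 0.0674). Also higher were the mesothelial Lrrn4 (2.12) and Upk1b (4.24) and the fibroblast peptidase gene Fap (2.05), with calls lost for Lrrn4 without young replicate 1, 2 or 3 (adjusted p = 0.0767 to 0.0954), Upk1b without young replicate 1, 2 or 3 (adjusted p = 0.0821 to 0.106) and Fap without old replicate 1, 2 or 3 or young replicate 2 or 3 (adjusted p = 0.055 to 0.168).

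Of 12387 genes tested, 811 were higher and 586 lower in old adipocytes, 6.55% and 4.73% of those tested and 11.3% in all. The median log2 fold change over all of them was 0.02. Old and young libraries did not overlap for 775 of the 811 (95.6%) and 555 of the 586 (94.7%), against 11.1% and 10.3% of all genes tested (21.5% together). A lack of overlap was thus shared by nearly all called genes. Without old replicate 5 the counts were 1152 higher and 849 lower of 12014 (9.59%, 7.07% and 16.7% together), including 787 of the 811 and 584 of the 586. Among the genes called higher, old replicate 5 was the highest old library for 440 (54.3%) and the lowest for 193 (23.8%). Among those called lower it was the lowest for 369 (63.0%). Over all genes tested it was the highest for 32.9% and the lowest for 31.5%. Leaving out a young library left 457 to 823 calls, the fewest without young replicate 2.

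**Figure D2:**
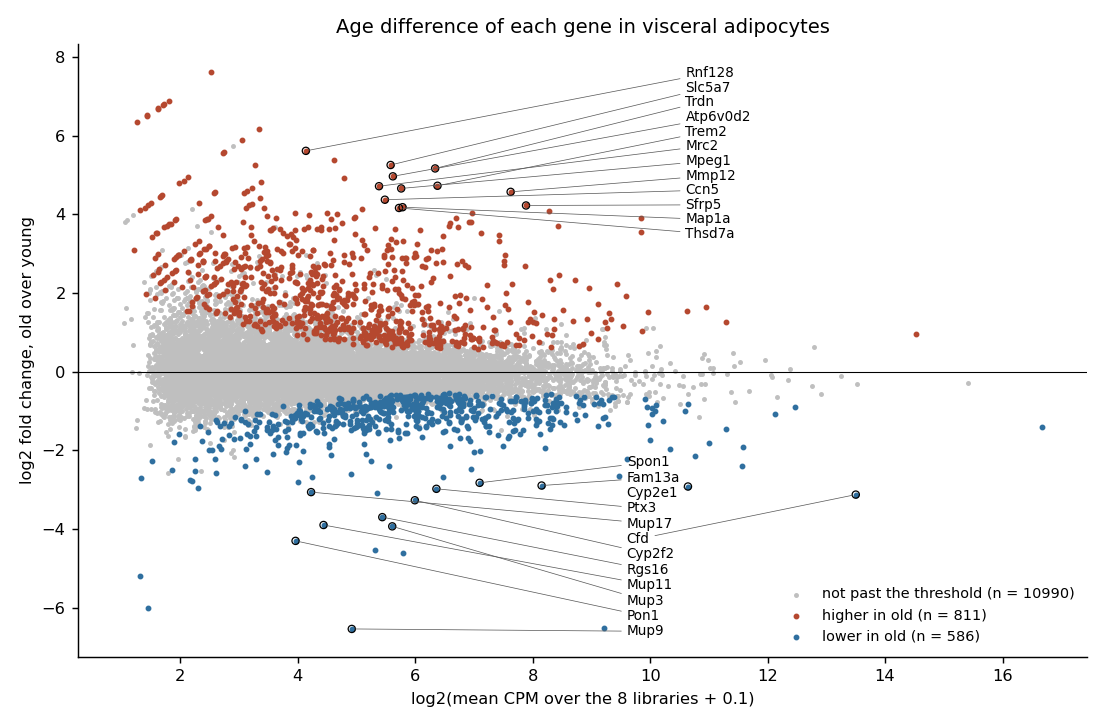
Log2 fold change, old over young, of each of the 12387 genes tested against log2 of its mean CPM over the 8 libraries plus 0.1. Red points are higher in old adipocytes (n = 811) and blue points lower (n = 586), grey points did not pass the threshold, and names mark the 12 highest and 12 lowest genes that met the naming rule.

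Of the 12 genes that rose the most under the naming rule, 7 were lowest in replicate 5 among the old libraries and 3 highest. Slc5a7, the high-affinity choline transporter known from cholinergic neurons (chromosome 17, 54273590 to 54299034), had 47.4, 60.5, 122, 127 and 18.7 CPM in old adipocytes, against 3.28, 2.12 and 0.486 CPM in young adipocytes (log2 fold change 5.26 ± 0.77 (SE), adjusted p = 0.00187). Trdn, for triadin, a protein of the calcium release complex of muscle (chromosome 10, 33080554 to 33476709), had 120.5, 124, 176, 166 and 49.6 CPM in old adipocytes, against 6.02, 2.12 and 2.43 CPM in young adipocytes (log2 fold change 5.17 ± 0.51 (SE), adjusted p = 0.000166). Mrc2, an endocytic receptor for collagen (chromosome 11, 105292643 to 105351139), had 42.2, 52.1, 109.6, 103 and 18.96 CPM in old adipocytes, against 2.74, 1.59 and 2.92 CPM in young adipocytes (log2 fold change 4.72 ± 0.67 (SE), adjusted p = 0.00149). In each of these old replicate 5 was the lowest old library, as for the adipocyte markers, and it still lay above every young library. The same order held for Ccn5, a secreted matricellular protein (64.6, 66.3, 105, 101 and 9.48 CPM in old and 2.19, 4.78 and 2.92 CPM in young adipocytes, 4.38 ± 0.74, adjusted p = 0.00364). It also held for the microtubule-associated Map1a (chromosome 2, 121289600 to 121310832), which had 83.5, 95.3, 110.0, 98.4 and 38.8 CPM in old adipocytes, against 2.19, 3.72 and 7.78 CPM in young adipocytes (log2 fold change 4.18 ± 0.45 (SE), adjusted p = 0.000311).

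Sfrp5, a secreted Wnt inhibitor made by adipocytes (chromosome 19, 42197971 to 42202252), had 279.9, 349, 440.0, 542 and 222 CPM in old adipocytes, against 15.9, 11.7 and 30.6 CPM in young adipocytes (log2 fold change 4.23 ± 0.40 (SE), adjusted p = 0.000144). Thsd7a, a membrane protein with thrombospondin repeats (chromosome 6, 12311610 to 12749410), had 66.2, 84.6, 109, 92.7 and 55.7 CPM in old adipocytes, against 2.19, 6.90 and 4.38 CPM in young adipocytes (log2 fold change 4.17 ± 0.36 (SE), adjusted p = 0.000111). Both were lowest in replicate 5 among the old libraries and far above every young library. Rnf128, an E3 ubiquitin ligase (chromosome X, 139563316 to 139673145), had 22.4, 19.1, 26.2, 38.8 and 31.8 CPM in old adipocytes, against 0.547, 0 and 0.972 CPM in young adipocytes (adjusted p = 0.000149). It had 446 counts in the old and 3 in the young libraries, a ratio of 53.4 on scaled library sizes with an exact 95% interval of 18.2 to 260.0 that covers counting error only.

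The other genes of the 12 are known from macrophages, and 3 of them were highest in old replicate 5. Trem2, a lipid-sensing receptor of macrophages (chromosome 17, 48346401 to 48354147), had 82.2, 84.9, 75.2, 154 and 254 CPM in old adipocytes, against 3.83, 6.37 and 4.38 CPM in young adipocytes (log2 fold change 4.73 ± 0.52 (SE), adjusted p = 0.000383). Mpeg1, a pore-forming protein of phagocytes (chromosome 19, 12460779 to 12465283), had 58.1, 69.8, 59.1, 64.4 and 171 CPM in old adipocytes, against 3.28, 3.72 and 2.92 CPM in young adipocytes (log2 fold change 4.66 ± 0.50 (SE), adjusted p = 0.000311). Atp6v0d2, a proton pump subunit of osteoclasts and lipid-laden macrophages (chromosome 4, 19876841 to 19922605), had 42.5, 39.97, 63.2, 68.9 and 170.4 CPM in old adipocytes, against 0.547, 2.65 and 3.89 CPM in young adipocytes (log2 fold change 4.97 ± 0.67 (SE), adjusted p = 0.00121). Mmp12, macrophage elastase (chromosome 9, 7344381 to 7369499), had 213, 178, 339, 419 and 388 CPM in old adipocytes, against 12.6, 14.9 and 11.2 CPM in young adipocytes (log2 fold change 4.58 ± 0.36 (SE), adjusted p = 9.24e-05), with old replicate 4 the highest. Old and young libraries did not overlap for any of the 12, which the naming rule required. Without old replicate 5 the log2 fold changes of these macrophage genes were 4.34, 4.24, 4.45 and 4.48 for Trem2, Mpeg1, Atp6v0d2 and Mmp12.

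At the other end stood Cfd, for adipsin or complement factor D, among the most abundant adipocyte transcripts (chromosome 10, 79890853 to 79892655). It had 3881, 3905, 2883, 2955 and 1259 CPM in old adipocytes, against 21747, 32857 and 23237 CPM in young adipocytes (log2 fold change -3.12 ± 0.35 (SE), adjusted p = 0.000391), and every old library lay far below every young one. Cyp2e1, a cytochrome P450 (chromosome 7, 140763739 to 140774987), had 624, 566, 489, 417 and 215 CPM in old adipocytes, against 2931, 4435 and 3115 CPM in young adipocytes (log2 fold change -2.92 ± 0.31 (SE), adjusted p = 0.000291). Fam13a, a gene whose human counterpart lies at a locus linked to fat distribution (chromosome 6, 58932090 to 59024549), had 100.3, 105, 78.9, 78.3 and 54.1 CPM in old adipocytes, against 545, 716 and 596 CPM in young adipocytes (log2 fold change -2.89 ± 0.22 (SE), adjusted p = 9.24e-05). For both, libraries 1 to 4 of the old group were already far below the young ones. Without old replicate 5 the log2 fold changes were -2.93, -2.73 and -2.77 for Cfd, Cyp2e1 and Fam13a.

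Rgs16, which switches off G protein signals (chromosome 1, 153740349 to 153745468), had 11.7, 9.85, 5.61, 7.09 and 4.89 CPM in old adipocytes, against 60.7, 128 and 118 CPM in young adipocytes (log2 fold change -3.70 ± 0.31 (SE), adjusted p = 0.00011). Pon1, a lipoprotein-bound esterase (chromosome 6, 5168090 to 5193946), had 3.25, 1.16, 2.24, 1.98 and 0.918 CPM in old adipocytes, against 25.7, 57.9 and 30.6 CPM in young adipocytes (log2 fold change -4.30 ± 0.40 (SE), adjusted p = 0.000135). Spon1, the extracellular F-spondin (chromosome 7, 113765998 to 114043370), had 60.1, 67.8, 19.8, 21.8 and 38.2 CPM in old adipocytes, against 353, 212 and 319.9 CPM in young adipocytes (log2 fold change -2.82 ± 0.36 (SE), adjusted p = 0.000917). The young libraries were well separated from the old ones in all 3, and old replicates 3 and 4 were the lowest for Spon1. Cyp2f2, another P450 (-3.27 ± 0.48, adjusted p = 0.00187), and the soluble pattern receptor Ptx3 (-2.98 ± 0.52, adjusted p = 0.00424) were lower too. Ptx3 varied from 53.1 to 327 CPM among the young libraries.

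Major urinary proteins, small lipid carriers secreted mainly by the liver, took 4 of the 12 lowest places. Mup3 had 6.49, 8.11, 12.3, 10.2 and 1.22 CPM in old adipocytes, against 66.8, 186 and 97.7 CPM in young adipocytes (log2 fold change -3.93 ± 0.46 (SE), adjusted p = 0.000577). Mup9 had 0.649, 2.61, 0.374, 0.284 and 0 CPM in old adipocytes, against 13.1, 28.1 and 196 CPM in young adipocytes (log2 fold change -6.54 ± 0.92 (SE), adjusted p = 0.00148), so that young replicate 3 carried most of the young counts. Mup11 (-3.90 ± 0.47, adjusted p = 0.000644) and Mup17 (-3.06 ± 0.67, adjusted p = 0.0136) were lower as well, and the call was lost for Mup17 without young replicate 2 (adjusted p = 0.0989). These genes are near-identical copies on chromosome 4 whose reads may have been split or shared by the counting, so their separate values are uncertain. Of 5 hepatocyte markers, Ttr, Serpina1a and Fgb were too low to be measured. Alb, for albumin, had 53.6, 60.8, 55.7, 52.2 and 16.8 CPM in old adipocytes, against 151, 171 and 209 CPM in young adipocytes (log2 fold change -1.89 ± 0.31 (SE), adjusted p = 0.00341). Apoa2, an apolipoprotein, had 2.27, 1.16, 3.74, 4.25 and 1.84 CPM in old adipocytes, against 2.19, 1.06 and 5.35 CPM in young adipocytes and did not pass (-0.14, adjusted p = 0.916). Summed over the list, most of it Alb, the level was 20.5 to 62.9 CPM in old libraries and 153 to 228 CPM in young libraries. The part of liver RNA in the decline of the urinary protein genes was not tested.

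**Figure D3:**
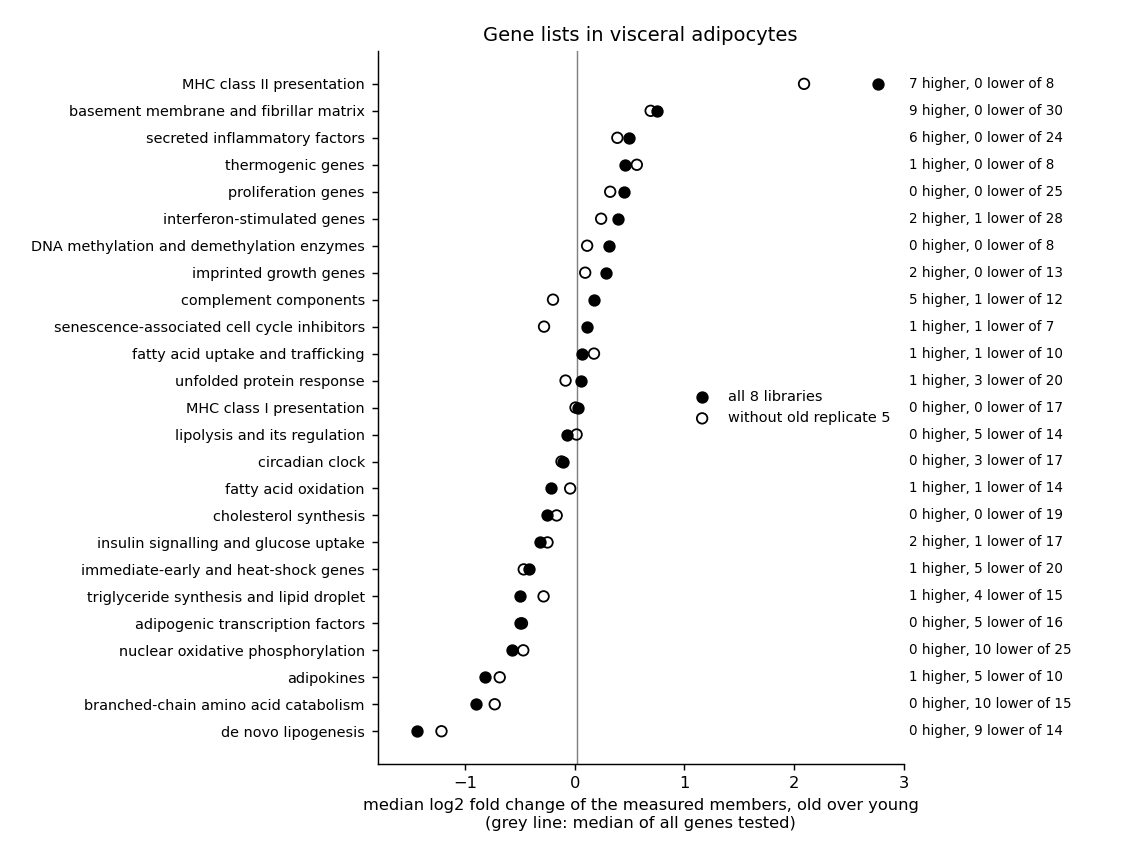
Median log2 fold change, old over young, of the measured members of each gene list, with all 8 libraries (filled) and without old replicate 5 (open). Counts at the right give members past the threshold, and the lowest median was that of de novo lipogenesis (-1.44) and the highest that of MHC class II presentation (2.77).

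Of 10 measured adipokine genes 5 were lower and 1 higher in old adipocytes, with a median log2 fold change of -0.82 against 0.02 over all genes. Cfd, given above, fell the most. Retn, for resistin, had 1748, 1752, 1644, 1721 and 602 CPM in old adipocytes, against 5592, 6009 and 5395 CPM in young adipocytes (log2 fold change -1.92 ± 0.31 (SE), adjusted p = 0.00284). Agt, the precursor of angiotensin, had 55.5, 67.2, 36.3, 48.2 and 18.05 CPM in old adipocytes, against 275, 321 and 160.4 CPM in young adipocytes (log2 fold change -2.48 ± 0.34 (SE), adjusted p = 0.00137). Rbp4, the retinol carrier, had 913, 864, 977, 871 and 292 CPM in old adipocytes, against 2032, 1919 and 1631 CPM in young adipocytes (log2 fold change -1.25 ± 0.31 (SE), adjusted p = 0.0255). Old replicate 5 was the lowest library for each of these, and the old libraries 1 to 4 also lay below all young ones. The threshold was no longer met by Rbp4 without young replicate 1, 2 or 3 (adjusted p = 0.0576 to 0.103).

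Adipoq fell less, and its call was fragile (log2 fold change -1.07 ± 0.32 (SE), adjusted p = 0.0485). Calls were lost for Adipoq without old replicate 1, 2, 3 or 4 or young replicate 1, 2 or 3 (adjusted p = 0.0645 to 0.173), and without old replicate 5 the fold change was -0.86 (adjusted p = 0.000238). Lep, for leptin, went the other way, with 2350.4, 2636, 3467, 3889 and 863 CPM in old adipocytes, against 1114, 609 and 827 CPM in young adipocytes (log2 fold change 1.64 ± 0.42 (SE), adjusted p = 0.0265). Only old replicate 5 lay within the young range, and without it the fold change was 1.86 (adjusted p = 2.65e-05). Leaving out single libraries ended the call of Lep without old replicate 3 or 4 or young replicate 1, 2 or 3 (adjusted p = 0.05 to 0.143). Over the list, the count of lower members ran from 3 without young replicate 1 to 6 without old replicate 5. The adipocyte markers Plin1 (-0.54, adjusted p = 0.254) and Cidec (-0.50, adjusted p = 0.388) did not pass the threshold. Of 10 further adipocyte markers 1 was higher and 3 were lower. The list medians of the 3 adipocyte markers and of the 10 further ones were -0.54 and -0.30. Car3, a carbonic anhydrase that took 3.17% to 8.30% of counts in old libraries and 14.4% to 15.8% in young ones, was lower as well (log2 fold change -1.41 ± 0.38 (SE), adjusted p = 0.0339). That call ended without old replicate 1, 2, 3 or 4 or young replicate 1, 2 or 3 (adjusted p = 0.0609 to 0.111) and held without old replicate 5.

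De novo lipogenesis, by which acetyl-CoA is made into fatty acids, had the lowest list median, -1.44, and -1.22 without old replicate 5. Of 14 measured members 9 were lower and 0 higher in old adipocytes. In pathway order, Acly, which makes cytosolic acetyl-CoA from citrate, had 65.3, 68.1, 65.1, 66.4 and 59.6 CPM in old adipocytes, against 443, 88.6 and 100.1 CPM in young adipocytes (log2 fold change -1.70 ± 0.42 (SE), adjusted p = 0.0222). Acss2, which makes it from acetate, had 32.5, 30.7, 38.5, 39.7 and 21.4 CPM in old adipocytes, against 141, 70.6 and 78.8 CPM in young adipocytes (log2 fold change -1.57 ± 0.26 (SE), adjusted p = 0.00338). Acaca, the committed step to malonyl-CoA, had 70.1, 70.96, 65.5, 68.3 and 20.8 CPM in old adipocytes, against 290.0, 219 and 216 CPM in young adipocytes (log2 fold change -2.03 ± 0.31 (SE), adjusted p = 0.00243). Old libraries were close to one another for Acly, whereas young replicate 1 stood far above the remaining young libraries.

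Fasn, the fatty acid synthase, had 381, 388, 366, 415 and 103 CPM in old adipocytes, against 2351, 1131 and 1112 CPM in young adipocytes (log2 fold change -2.21 ± 0.39 (SE), adjusted p = 0.00453). Elovl6, which lengthens its product, had 54.2, 70.96, 63.6, 62.95 and 44.4 CPM in old adipocytes, against 371, 112 and 91.9 CPM in young adipocytes (log2 fold change -1.69 ± 0.37 (SE), adjusted p = 0.0137). Thrsp, a lipogenic protein induced by thyroid hormone and carbohydrate, had 856, 982, 854, 782 and 299.8 CPM in old adipocytes, against 4581, 3247 and 2234 CPM in young adipocytes (log2 fold change -2.15 ± 0.34 (SE), adjusted p = 0.00281). In each of the 3 all old libraries were below all young ones, with old replicate 5 the lowest and young replicate 1 the highest. Pnpla3 (-1.46 ± 0.35, adjusted p = 0.0199), a lipid-remodelling acyltransferase and hydrolase, and Elovl5 (-0.67 ± 0.19, adjusted p = 0.0427), an elongase of polyunsaturated fatty acids, were lower too. Srebf1, the transcription factor that drives these genes, had 37.3, 57.1, 65.5, 47.9 and 14.99 CPM in old adipocytes, against 161, 113 and 82.6 CPM in young adipocytes (log2 fold change -1.42 ± 0.36 (SE), adjusted p = 0.0275). The threshold was no longer met by Srebf1 without old replicate 1 or young replicate 1 or 2 (adjusted p = 0.0635 to 0.139). The number of lower members ran from 4 without young replicate 1, which were Acss2, Acaca, Fasn and Thrsp, to 11 without old replicate 5. Acly, Elovl6, Pnpla3 and Elovl5 thus also lost their calls without young replicate 1.

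The other 5 members did not pass. Scd1, the abundant desaturase that makes monounsaturated fat, had 11992, 11720.4, 12985, 13222 and 4049 CPM in old adipocytes, against 18046, 11642 and 10493 CPM in young adipocytes (log2 fold change -0.31 ± 0.36, adjusted p = 0.637), and only old replicate 5 lay outside the young range. Scd2 (-0.56, adjusted p = 0.349), Me1 (0.12, adjusted p = 0.869), Slc25a1 (-1.12, adjusted p = 0.0783) and Mlxipl, the carbohydrate-sensing factor (-0.97, adjusted p = 0.0697), were the others. The adipocyte markers, whose sums were 2519 to 8054 CPM in old libraries and 10172 to 12143 CPM in young libraries, moved in the same direction. Their median was -0.54, or -0.35 without old replicate 5. The part of adipocyte content in this and the other lower metabolic lists was not tested.

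Promoter sequence is shown for the 2 lipogenic genes that fell the most, Fasn and Thrsp, because CCAAT boxes, the sites of the factor NF-Y, are known to work beside sterol regulatory elements in promoters of this pathway. The RefSeq table (GRCm38.p6) held promoters of 12 of the 14 list members, and the 250 bases upstream of the start were searched on both strands. CCAAT was found in 9 of 12, among them 6 of the 9 lower genes, and in 37.5% of 27025 genes in the table. The E-box CACGTG was found in 3 of 12, among them 1 of the 9 lower genes, and in 6.86% of genes. The sterol regulatory core TCACNCCAC was found in 1 of 12, Mlxipl, in 0 of the 9 lower genes, and in 1.22% of genes. Matches are letters in a window and not binding sites. GENCODE places the Thrsp gene at 97412938 to 97417730, so the window upstream of its RefSeq start lies inside the GENCODE gene. Below, 67 bases are given 5′ to 3′ on the gene's strand, the minus strand for both, with CCAAT or its reverse complement ATTGG in capitals.
Fasn, chr11:120824571-120824637, 90 to 24 bases upstream: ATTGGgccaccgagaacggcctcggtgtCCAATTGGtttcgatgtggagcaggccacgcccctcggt
Thrsp, chr7:97417567-97417633, 83 to 17 bases upstream: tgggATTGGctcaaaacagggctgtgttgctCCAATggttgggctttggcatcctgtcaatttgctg
In Fasn 2 of the 3 matches overlap in a palindrome, and both promoters hold matches in each orientation.

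**Figure D4:**
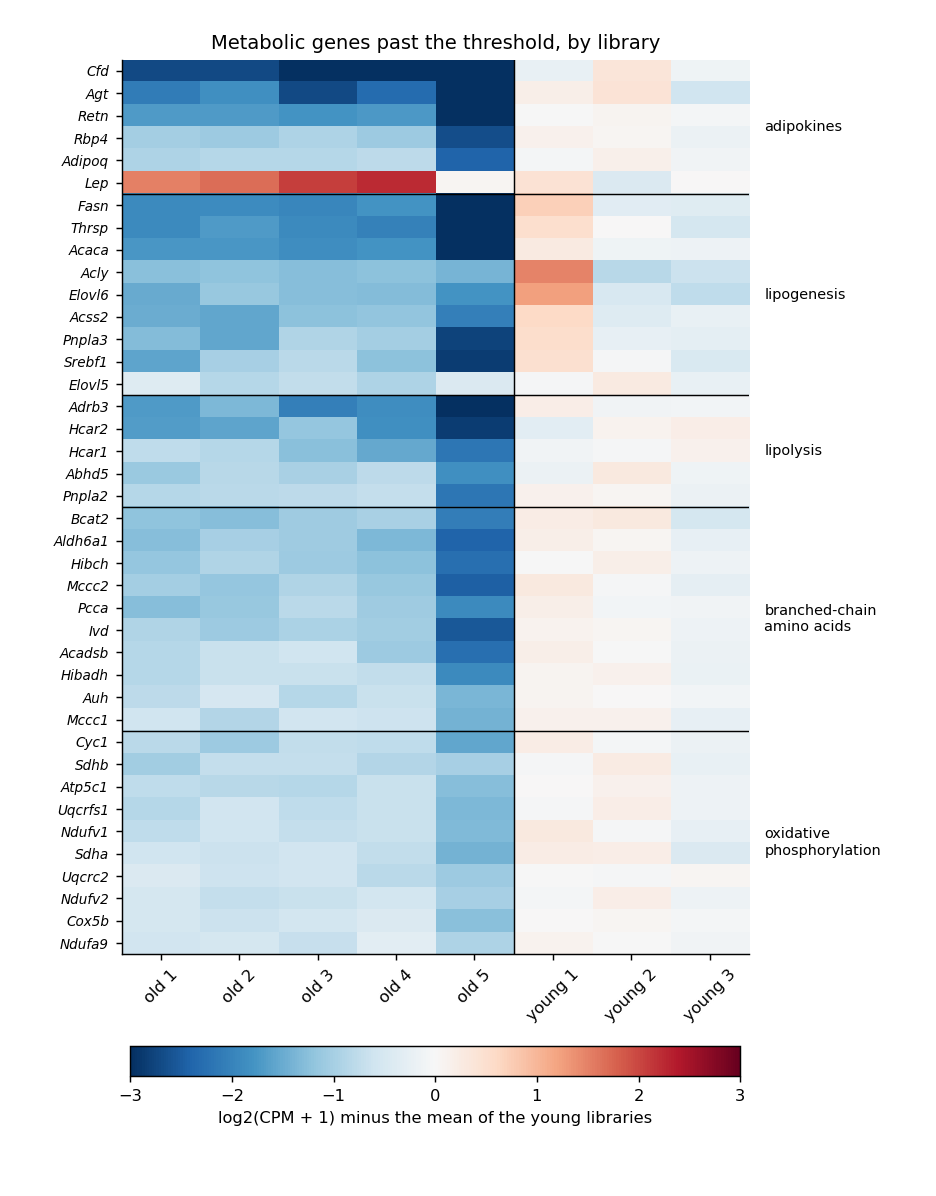
Log2(CPM + 1) minus the mean of the young libraries for the 40 members past the threshold of 5 metabolic lists, with old libraries 1 to 5 left and young libraries 1 to 3 right. Blue is lower and red higher than the young mean, and the old libraries are blue throughout except for Lep, with old replicate 5 the lowest old library for 38 of the 40. Values past either end of the colour scale take its end colour.

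Triglyceride synthesis and lipid droplet genes were lower in 4 and higher in 1 of 15 measured members, beside 4.73% and 6.55% of all genes tested. The median was -0.50, beside -0.54 for the 3 adipocyte markers, of which Plin1 and Cidec are also members here. Gpam, the first acyltransferase of glycerolipid synthesis, had 126, 158, 102, 94.7 and 38.2 CPM in old adipocytes, against 347, 328 and 332 CPM in young adipocytes (log2 fold change -1.69 ± 0.32 (SE), adjusted p = 0.00663). Agpat2, the next acyltransferase (-1.28 ± 0.33, adjusted p = 0.0292), and Pcx, pyruvate carboxylase (-1.20 ± 0.33, adjusted p = 0.0356), were lower, as was the seipin gene Bscl2 (-0.99 ± 0.29, adjusted p = 0.0458). Plin2, a droplet coat protein found in many cell types including lipid-laden macrophages, was the one higher member. It had 464, 468, 653, 715 and 803 CPM in old adipocytes, against 304, 307 and 334 CPM in young adipocytes (log2 fold change 0.98 ± 0.22 (SE), adjusted p = 0.0163), and old replicate 5 was the highest library. The enzymes of the last step, Dgat1 (-1.16, adjusted p = 0.0681) and Dgat2 (-0.32, adjusted p = 0.694), did not pass. Calls were lost for Agpat2 without old replicate 1 or young replicate 1 or 2 (adjusted p = 0.0599 to 0.149), Pcx without old replicate 1, 2 or 3 or young replicate 1, 2 or 3 (adjusted p = 0.056 to 0.154) and Plin2 without young replicate 1, 2 or 3 (adjusted p = 0.0569 to 0.0901). Lower members ran from 1 without old replicate 1, which was Gpam, to 6 without old replicate 5. Bscl2 thus also lost its call without old replicate 1. Higher members ran from 0 without young replicate 1 to 2 without old replicate 5.

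Of 10 genes of fatty acid uptake 1 was lower and 1 higher, beside 4.73% and 6.55% of all genes tested. Slc27a1, the fatty acid transport protein 1, had 377, 365, 489.8, 579.9 and 194 CPM in old adipocytes, against 1002, 892 and 813 CPM in young adipocytes (log2 fold change -1.17 ± 0.28 (SE), adjusted p = 0.0207). Fabp5, a fatty acid binding protein shared with macrophages, had 192, 169, 162, 217 and 224 CPM in old adipocytes, against 97.4, 124 and 123 CPM in young adipocytes (log2 fold change 0.75 ± 0.18 (SE), adjusted p = 0.0221). The abundant members Lpl (-0.36, adjusted p = 0.463), Cd36 (0.07, adjusted p = 0.868) and Fabp4 (-0.28, adjusted p = 0.619) did not pass. Leaving out single libraries ended the call of Slc27a1 without old replicate 1 or young replicate 1, 2 or 3 (adjusted p = 0.0503 to 0.0876) and Fabp5 without young replicate 1, 2 or 3 (adjusted p = 0.0629 to 0.103).

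Among genes of lipolysis and its regulation 5 of 14 were lower and 0 higher, with a median of -0.08, close to that of all genes. Of the receptors, Adrb3, the β3-adrenergic receptor that starts catecholamine-driven lipolysis in mouse adipocytes, had 168, 214, 132, 149.7 and 59.6 CPM in old adipocytes, against 624, 509.6 and 515 CPM in young adipocytes (log2 fold change -1.93 ± 0.30 (SE), adjusted p = 0.00271). Hcar2 and Hcar1, the receptors for hydroxybutyrate and lactate that restrain lipolysis, were also lower. Hcar2 had 8.12, 8.69, 11.97, 7.09 and 3.06 CPM in old adipocytes, against 22.4, 30.3 and 32.6 CPM in young adipocytes (log2 fold change -1.87 ± 0.34 (SE), adjusted p = 0.00556). Hcar1 had 60.1, 55.9, 42.3, 34.6 and 21.7 CPM in old adipocytes, against 95.2, 98.7 and 112 CPM in young adipocytes (log2 fold change -1.25 ± 0.27 (SE), adjusted p = 0.0135). Old and young libraries did not overlap for any of these receptors, as for 94.7% of all genes called lower.

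Of the enzymes, Pnpla2, the first triglyceride lipase (ATGL), had 855, 894, 898, 946 and 348 CPM in old adipocytes, against 1695, 1617 and 1380.2 CPM in young adipocytes (log2 fold change -0.99 ± 0.28 (SE), adjusted p = 0.0417), and its activator Abhd5 had 64.9, 78.5, 71.8, 82.2 and 38.5 CPM in old adipocytes, against 126, 175 and 129 CPM in young adipocytes (log2 fold change -1.09 ± 0.23 (SE), adjusted p = 0.0122). Lipe, hormone-sensitive lipase (-0.19, adjusted p = 0.747), Mgll (0.36, adjusted p = 0.424) and the ATGL inhibitor G0s2 (0.09, adjusted p = 0.899) did not pass. Neither did Adrb1 (1.92, adjusted p = 0.0749). The number of lower members ran from 2 without young replicate 2 to 5 without old replicate 5, and without old replicate 5 there were 3 higher members. The threshold was no longer met by Abhd5 without young replicate 2 (adjusted p = 0.0872) and Hcar1 without young replicate 2 or 3 (adjusted p = 0.056 to 0.0608). Pnpla2 also lost its call without young replicate 2, where the 2 lower members were Adrb3 and Hcar2.

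Of 17 insulin signalling and glucose uptake genes 2 were higher and 1 lower, beside 6.55% and 4.73% of all genes tested. Hk2, the insulin-induced hexokinase, had 154, 133, 146, 157 and 40.7 CPM in old adipocytes, against 315, 467 and 349.5 CPM in young adipocytes (log2 fold change -1.58 ± 0.34 (SE), adjusted p = 0.0121). Grb14, an adaptor that inhibits the insulin receptor, had 36.4, 38.5, 37.8, 47.1 and 10.7 CPM in old adipocytes, against 7.66, 5.84 and 11.7 CPM in young adipocytes (log2 fold change 2.01 ± 0.45 (SE), adjusted p = 0.0144), with old replicate 5 inside the young range. Ptpn1, the phosphatase PTP1B that acts on the same receptor, was slightly higher (0.69 ± 0.20, adjusted p = 0.0481; 0.0547 with RLE size factors). Insr (-0.26, adjusted p = 0.418), Irs1 (-0.96, adjusted p = 0.117) and Slc2a4, the insulin-responsive glucose transporter (-0.81, adjusted p = 0.123), did not pass. Without old replicate 5 there were 3 higher and 2 lower members. Calls were lost for Hk2 without young replicate 2 (adjusted p = 0.0804), Grb14 without young replicate 1 or 2 (adjusted p = 0.0707 to 0.0934) and Ptpn1 without old replicate 2, 3 or 4 or young replicate 1, 2 or 3 (adjusted p = 0.084 to 0.145).

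Branched-chain amino acid catabolism, a source of acetyl-CoA and propionyl-CoA in fat, was lower in 10 and higher in 0 of 15 measured members, with a median of -0.91 (-0.73 without old replicate 5). All 15 fold changes were below 0. Bcat2, the mitochondrial aminotransferase of the first step, had 21.4, 20.6, 23.9, 25.5 and 11.3 CPM in old adipocytes, against 60.2, 63.2 and 35.00 CPM in young adipocytes (log2 fold change -1.36 ± 0.28 (SE), adjusted p = 0.00913). Of the later steps, Hibch of valine breakdown had 101, 120.5, 107, 96.7 and 46.2 CPM in old adipocytes, against 225, 256 and 203 CPM in young adipocytes (log2 fold change -1.28 ± 0.25 (SE), adjusted p = 0.00798). Aldh6a1, the valine and thymine semialdehyde dehydrogenase, had 247, 295, 286, 233 and 113 CPM in old adipocytes, against 672, 623 and 504 CPM in young adipocytes (log2 fold change -1.35 ± 0.27 (SE), adjusted p = 0.00793). Pcca, a propionyl-CoA carboxylase subunit, had 69.8, 77.05, 96.5, 80.8 and 44.7 CPM in old adipocytes, against 193, 161 and 158 CPM in young adipocytes (log2 fold change -1.21 ± 0.22 (SE), adjusted p = 0.00517). All old libraries lay below all young ones in each, and old replicate 5 was the lowest. The remaining lower members were Ivd, Mccc1, Mccc2, Auh, Hibadh and Acadsb, with log2 fold changes from -1.27 (Mccc2) to -0.81 (Mccc1). The number of lower members ran from 2 without young replicate 2, which were Pcca and Aldh6a1, to 12 without old replicate 5. Ivd, Mccc1, Mccc2, Auh, Hibadh and Acadsb thus lost their calls without young replicate 2. Leaving out single libraries ended the call of Bcat2 without young replicate 1 or 2 (adjusted p = 0.0508 to 0.0683) and Hibch without young replicate 2 (adjusted p = 0.058).

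For nuclear genes of oxidative phosphorylation the differences were smaller. Of 25 measured 10 were lower and 0 higher, all 25 fold changes were below 0, and the median was -0.57. Without old replicate 5 it was -0.47, and the 3 adipocyte markers had medians of -0.54 with and -0.35 without that library. Complex I gave Ndufv1, Ndufv2 and Ndufa9 (-0.81, -0.69 and -0.60). From complex II, Sdhb had 154, 196, 194, 176 and 159.7 CPM in old adipocytes, against 314, 382 and 277 CPM in young adipocytes (log2 fold change -0.88 ± 0.17 (SE), adjusted p = 0.00718). From complex III, Cyc1 had 167, 135, 175, 170.4 and 98.2 CPM in old adipocytes, against 341, 279.7 and 259 CPM in young adipocytes (log2 fold change -0.97 ± 0.21 (SE), adjusted p = 0.0117). Uqcrfs1, its Rieske iron-sulfur subunit, had 173, 209.7, 186, 198 and 123 CPM in old adipocytes, against 306, 361 and 281 CPM in young adipocytes (log2 fold change -0.83 ± 0.19 (SE), adjusted p = 0.0179). From the ATP synthase, Atp5c1 had 279, 267, 264, 298 and 195 CPM in old adipocytes, against 482, 518 and 431 CPM in young adipocytes (log2 fold change -0.87 ± 0.18 (SE), adjusted p = 0.00927). Cox5b of complex IV was lower as well (-0.66 ± 0.19, adjusted p = 0.0487). Old and young libraries did not overlap for Sdhb, Cyc1, Uqcrfs1 and Atp5c1, as for 94.7% of all genes called lower. The number of lower members ran from 0 without young replicate 2 to 14 without old replicate 5. The threshold was no longer met by Sdhb without young replicate 2 (adjusted p = 0.0588), Cyc1 without young replicate 1 or 2 (adjusted p = 0.0525 to 0.0634), Uqcrfs1 without young replicate 1 or 2 (adjusted p = 0.057 to 0.108) and Atp5c1 without young replicate 2 (adjusted p = 0.0633).

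Genes of fatty acid oxidation gave 1 higher and 1 lower of 14, beside 6.55% and 4.73% of all genes tested. Cpt1a, the carnitine transferase that admits fatty acids to mitochondria, had 59.1, 51.8, 48.6, 53.6 and 63.6 CPM in old adipocytes, against 15.3, 15.4 and 25.8 CPM in young adipocytes (log2 fold change 1.55 ± 0.23 (SE), adjusted p = 0.00191). Cpt2, its inner membrane partner, was lower (-0.85 ± 0.25, adjusted p = 0.0451). Acadm (-0.23, adjusted p = 0.632) and Acadl (-0.21, adjusted p = 0.668) did not pass. Of 8 measured thermogenic genes 1 was higher, beside 6.55% of all genes tested. It was the proton channel gene Otop1, at 5.52, 5.50, 5.99, 7.66 and 2.14 CPM in old adipocytes, against 1.09, 1.06 and 0 CPM in young adipocytes (log2 fold change 2.86 ± 0.72 (SE), adjusted p = 0.0255). Ucp1, the uncoupling protein that marks thermogenic fat, was too low to be tested. Without old replicate 5 there were 4 higher thermogenic members. Calls were lost for Cpt2 without old replicate 1, 2 or 3 or young replicate 1, 2 or 3 (adjusted p = 0.0578 to 0.167) and Otop1 without young replicate 1, 2 or 3 (adjusted p = 0.0719 to 0.0898).

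Transcription factors of the adipocyte programme were lower in 5 and higher in 0 of 16, with a median of -0.50, beside -0.54 for the 3 adipocyte markers. Klf15, a glucocorticoid-induced regulator of lipid and amino acid metabolism, had 27.6, 23.5, 23.9, 29.2 and 12.8 CPM in old adipocytes, against 66.2, 54.1 and 58.8 CPM in young adipocytes (log2 fold change -1.35 ± 0.24 (SE), adjusted p = 0.00508). Cebpd, an early adipogenic factor (-0.90 ± 0.26, adjusted p = 0.0415), and Stat5a (-0.79 ± 0.23, adjusted p = 0.0443) were lower along with Srebf1. Pparg (-0.60, adjusted p = 0.0701) and Cebpa (-0.48, adjusted p = 0.266), the central factors of fat cell identity, did not pass. Leaving out single libraries ended the call of Cebpd without old replicate 2, 3 or 4 or young replicate 1, 2 or 3 (adjusted p = 0.0615 to 0.187). Lower members ran from 1 without young replicate 1, which was Klf15, to 7 without old replicate 5. Stat5a thus also lost its call without young replicate 1.

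Of 17 circadian clock genes 3 were lower and 0 higher, beside 4.73% and 6.55% of all genes tested. Nfil3, a repressor of the clock output, had 10.7, 9.27, 11.6, 13.04 and 6.73 CPM in old adipocytes, against 44.9, 80.2 and 62.7 CPM in young adipocytes (log2 fold change -2.60 ± 0.25 (SE), adjusted p = 0.000159). Nr1d1, the haem-sensing repressor REV-ERBα, had 27.9, 26.4, 14.6, 15.9 and 15.3 CPM in old adipocytes, against 44.3, 57.9 and 52.99 CPM in young adipocytes (log2 fold change -1.37 ± 0.26 (SE), adjusted p = 0.00629). Bhlhe40 had 45.1, 35.9, 20.2, 18.7 and 23.6 CPM in old adipocytes, against 48.2, 132 and 96.7 CPM in young adipocytes (log2 fold change -1.68 ± 0.34 (SE), adjusted p = 0.00877). The old libraries were below all young ones for each, and 94.7% of all genes called lower had no overlap. The core genes Arntl (-0.10, adjusted p = 0.888), Per1 (0.12, adjusted p = 0.785) and Per2 (-1.06, adjusted p = 0.128) did not pass. The hour of collection was not among the labels used. The threshold was no longer met by Bhlhe40 without young replicate 2 (adjusted p = 0.0747).

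Immediate-early and heat-shock genes respond within minutes to stress and to tissue handling. Of 20 measured 5 were lower and 1 higher, beside 4.73% and 6.55% of all genes tested. Ier2 had 359, 341, 256, 256 and 281 CPM in old adipocytes, against 621, 676 and 593 CPM in young adipocytes (log2 fold change -1.08 ± 0.18 (SE), adjusted p = 0.00341). Ier3 had 19.8, 21.1, 13.5, 16.7 and 18.4 CPM in old adipocytes, against 22.4, 195 and 67.1 CPM in young adipocytes (log2 fold change -2.40 ± 0.47 (SE), adjusted p = 0.00798), and the young libraries differed widely among themselves. Btg2 (-1.07), Zfp36 (-0.71) and the co-chaperone Dnajb1 (-1.23 ± 0.21, adjusted p = 0.0041) were the other lower members. The small heat-shock gene Hspb1 was higher (0.96 ± 0.17, adjusted p = 0.00493). Fos (-0.37, adjusted p = 0.313) and Jun (-0.11, adjusted p = 0.786) did not pass. Calls were lost for Ier3 without young replicate 2 (adjusted p = 0.0698), and lower members ran from 2 without young replicate 2 to 7 without old replicate 5. The 2 were Ier2 and Dnajb1, so Btg2 and Zfp36 lost their calls there as well.

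In the unfolded protein response 3 of 20 were lower and 1 higher, beside 4.73% and 6.55% of all genes tested. Chac1, a glutathione-degrading enzyme induced by ATF4, had 8.44, 4.34, 4.49, 4.54 and 2.75 CPM in old adipocytes, against 20.2, 42.5 and 40.4 CPM in young adipocytes (log2 fold change -2.80 ± 0.35 (SE), adjusted p = 0.000825). Xbp1, the factor activated by IRE1 splicing, had 156, 124, 123, 132 and 173 CPM in old adipocytes, against 323, 387 and 289 CPM in young adipocytes (log2 fold change -1.23 ± 0.18 (SE), adjusted p = 0.00169). Its target Dnajb9 was lower (-1.15 ± 0.22, adjusted p = 0.00653) and Sdf2l1 higher (1.72 ± 0.43, adjusted p = 0.0244). Of 7 measured cell cycle inhibitors linked with senescence 1 was higher and 1 lower, beside 6.55% and 4.73% of all genes tested. Cdkn1a, for p21, was higher, with 271, 227, 221, 294 and 269 CPM in old adipocytes, against 175, 93.95 and 126 CPM in young adipocytes (log2 fold change 0.96 ± 0.22 (SE), adjusted p = 0.015). Cdkn2c, for p18, was lower (-1.04 ± 0.29, adjusted p = 0.0406). Cdkn2a, for p16, was too low to be tested. Leaving out single libraries ended the call of Dnajb9 without young replicate 2 (adjusted p = 0.0516), Sdf2l1 without young replicate 1, 2 or 3 (adjusted p = 0.0563 to 0.13), Cdkn1a without young replicate 2 or 3 (adjusted p = 0.0694 to 0.0975) and Cdkn2c without old replicate 1, 3 or 4 or young replicate 1, 2 or 3 (adjusted p = 0.0582 to 0.15).

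Matrix genes were higher in 9 and lower in 0 of 30, with a median of 0.75. Of the fibrillar collagens, Col1a1 had 191, 185, 217, 238 and 231 CPM in old adipocytes, against 72.2, 21.8 and 43.8 CPM in young adipocytes (log2 fold change 2.21 ± 0.31 (SE), adjusted p = 0.00149) and Col1a2 had 520.2, 556, 328, 367 and 667 CPM in old adipocytes, against 180.0, 117 and 198 CPM in young adipocytes (log2 fold change 1.56 ± 0.28 (SE), adjusted p = 0.00465). Col6a3, of the collagen that surrounds fat cells, had 64.6, 56.5, 77.4, 57.3 and 72.2 CPM in old adipocytes, against 31.2, 26.5 and 35.98 CPM in young adipocytes (log2 fold change 1.07 ± 0.20 (SE), adjusted p = 0.00561). Timp2, an inhibitor of matrix metalloproteinases, had 72.1, 88.6, 59.9, 76.6 and 254 CPM in old adipocytes, against 8.21, 19.6 and 16.5 CPM in young adipocytes (log2 fold change 2.89 ± 0.53 (SE), adjusted p = 0.00534). No old library overlapped with a young one for these, as for 95.6% of all genes called higher, and old replicate 5 was far the highest for Timp2. The other higher members were Col15a1, Lox, Hspg2, Postn and Dcn, from 0.84 (Col15a1) to 2.24 (Dcn). Old replicate 5 was the lowest old library for Lox and Hspg2, inside the young range, and the highest for Postn and Dcn. The progenitor and fibroblast markers, of which Col1a1 and Dcn are members, summed to 774 to 3803 CPM in old libraries and 357 to 425 CPM in young libraries, and their part in the result was not tested. The number of higher members ran from 4 without young replicate 2, which were Col1a1, Col1a2, Col6a3 and Timp2, to 12 without old replicate 5. Col15a1, Lox, Hspg2, Postn and Dcn thus lost their calls without young replicate 2.

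Secreted inflammatory factors were higher in 6 and lower in 0 of 24. Higher members ran from 4 without old replicate 3 to 7 without old replicate 5, where 2 members were lower. Cxcl2, a neutrophil-attracting chemokine, had 277, 243, 234, 313 and 307 CPM in old adipocytes, against 21.9, 32.4 and 51.05 CPM in young adipocytes (log2 fold change 2.96 ± 0.27 (SE), adjusted p = 0.000135), with old libraries close together. The macrophage chemokines followed. Ccl6 had 355, 326, 301, 423 and 1219 CPM in old adipocytes, against 36.7, 40.9 and 41.8 CPM in young adipocytes (log2 fold change 3.72 ± 0.50 (SE), adjusted p = 0.00121). Ccl9 had 99.7, 108, 97.7, 131 and 295 CPM in old adipocytes, against 8.21, 10.1 and 15.1 CPM in young adipocytes (log2 fold change 3.70 ± 0.45 (SE), adjusted p = 0.000648). Ccl8 had 157, 113, 91.3, 74.9 and 369 CPM in old adipocytes, against 9.85, 11.7 and 15.6 CPM in young adipocytes (log2 fold change 3.69 ± 0.55 (SE), adjusted p = 0.00203). For these 3 old replicate 5 was far the highest, as for the macrophage markers. Saa3, an acute-phase protein of fat, was higher too (1.34 ± 0.34, adjusted p = 0.0267). Il1b, the cytokine interleukin-1β, chosen after its values were seen, had 8.44, 6.37, 5.24, 0.284 and 3.36 CPM in old adipocytes and 0 counts in all young libraries. Its old mean was at least 9.11-fold higher against a floor of 3 counts over the young group. Old replicate 4 lay below that floor of 0.520 CPM. Without old replicate 3 the 4 higher members were Cxcl2, Ccl6, Ccl9 and Ccl8, so Saa3 and Il1b lost their calls. Ccl2 (0.51, adjusted p = 0.244), Il6 (-0.61, adjusted p = 0.602) and Tnf (1.77, adjusted p = 0.129) did not pass.

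MHC class II presentation was higher in 7 and lower in 0 of 8 measured genes, with the highest list median, 2.77 (2.09 without old replicate 5). Without young replicate 1 there were 4 higher members. H2-Ab1, a β chain of the class II molecule, had 162, 222, 129, 172 and 645 CPM in old adipocytes, against 27.4, 48.8 and 44.7 CPM in young adipocytes (log2 fold change 2.72 ± 0.53 (SE), adjusted p = 0.00747). H2-Eb1, another β chain, had 104, 121, 77.8, 119 and 401 CPM in old adipocytes, against 20.8, 26.01 and 23.3 CPM in young adipocytes (log2 fold change 2.81 ± 0.53 (SE), adjusted p = 0.00619). Ctss, the protease that trims the invariant chain, had 335, 365, 354, 430.2 and 916 CPM in old adipocytes, against 20.8, 31.3 and 32.1 CPM in young adipocytes (log2 fold change 4.09 ± 0.40 (SE), adjusted p = 0.000166). H2-DMb1, of the peptide-loading chaperone, had 33.1, 43.4, 44.9, 53.9 and 52.00 CPM in old adipocytes, against 2.19, 7.96 and 7.78 CPM in young adipocytes (log2 fold change 2.91 ± 0.35 (SE), adjusted p = 0.000644). Old replicate 5 was far the highest for the first 3, and the old libraries lay close together for H2-DMb1. Cd74 (2.23), H2-Aa (2.68) and H2-DMa (2.45) were the other higher members, and their calls were lost without young replicate 1. The macrophage markers gave their range above, 1471 to 5821 CPM in old libraries and 199.7 to 304 CPM in young libraries, and their part in this result was not tested. B cell markers summed to 5.24 to 71.3 CPM in old libraries and 3.28 to 8.49 CPM in young libraries, with 6 of 7 too low to be measured.

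Complement genes were higher in 5 and lower in 1 of 12, beside 6.55% and 4.73% of all genes tested. The C1q chains, made by macrophages and also on the macrophage list, were C1qa (2.76), C1qb (log2 fold change 3.47 ± 0.50 (SE), adjusted p = 0.00164) and C1qc (log2 fold change 3.33 ± 0.53 (SE), adjusted p = 0.00284). Cfp, properdin (3.44), and Serping1, the C1 inhibitor (1.33 ± 0.23, adjusted p = 0.00405), were higher too. C2 went the other way, with 37.02, 39.4, 29.9, 31.2 and 43.7 CPM in old adipocytes, against 113, 89.2 and 71.95 CPM in young adipocytes (log2 fold change -1.33 ± 0.20 (SE), adjusted p = 0.002). The list's median was 0.17 with all libraries and -0.20 without old replicate 5, where 3 members were lower. Cfd, which activates the alternative pathway, was counted among the adipokines.

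Of 17 MHC class I genes 0 passed by edgeR's quasi-likelihood test, 2 had an unadjusted p under 0.05, and 1 passed, as lower, by DESeq2. B2m (-0.21, adjusted p = 0.594) and H2-D1 (-0.37, adjusted p = 0.199) were the most abundant. Of 28 interferon-stimulated genes 2 were higher, Gbp2 (0.90 ± 0.19, adjusted p = 0.0108) and Usp18 (2.65 ± 0.62, adjusted p = 0.0176), and 1 lower, Irf1 (-1.10 ± 0.26, adjusted p = 0.0202), beside 6.55% and 4.73% of all genes tested. Higher members ran from 0 without young replicate 1 to 5 without old replicate 5. Of 13 imprinted growth genes 2 were higher, beside 6.55% of all genes tested. That count ran from 1 without young replicate 2 to 3 without old replicate 5. Mest, a gene known to rise as fat expands, had 88.7, 86.6, 108, 108 and 39.8 CPM in old adipocytes, against 34.5, 17.5 and 22.8 CPM in young adipocytes (log2 fold change 1.79 ± 0.34 (SE), adjusted p = 0.00663). Peg10 had 32.8, 42.9, 56.5, 64.9 and 17.4 CPM in old adipocytes, against 2.19, 7.96 and 8.75 CPM in young adipocytes (log2 fold change 2.74 ± 0.50 (SE), adjusted p = 0.00517). The threshold was no longer met by Gbp2 without young replicate 1 or 2 (adjusted p = 0.0504 to 0.0547), Usp18 without young replicate 1, 2 or 3 (adjusted p = 0.0635 to 0.08), Irf1 without young replicate 2 or 3 (adjusted p = 0.0861 to 0.123) and Mest without young replicate 2 (adjusted p = 0.0564).

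In 3 further lists 0 members passed by edgeR's quasi-likelihood test. Of 19 cholesterol synthesis genes 4 had an unadjusted p under 0.05 and 0 passed by DESeq2, and the list's median was -0.26. The most abundant were Insig1, which restrains the pathway (-0.16 ± 0.45, adjusted p = 0.858), and Sc5d, a desaturase of its end (-0.60 ± 0.30, adjusted p = 0.234). Insig1 took the other sign, 0.52 (adjusted p = 0.562), without young replicate 1. Of 25 proliferation genes 4 had an unadjusted p under 0.05 and 1 passed, as higher, by DESeq2, with Pcna, the polymerase clamp, at 50.98, 52.7, 42.7, 45.1 and 68.8 CPM in old adipocytes, against 34.5, 37.7 and 38.4 CPM in young adipocytes (adjusted p = 0.136). Of 8 DNA methylation and demethylation enzymes 1 had an unadjusted p under 0.05 and 0 passed by DESeq2. Dnmt3a, the de novo methyltransferase, had 41.2, 51.6, 68.1, 57.6 and 102 CPM in old adipocytes, against 44.9, 39.8 and 29.2 CPM in young adipocytes (adjusted p = 0.113, and 0.0266 with no filter on low counts).

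Marker lists of further cell types gave few calls, which stand beside 6.55% of all genes tested called higher and 4.73% lower. Acta2, smooth muscle actin, had 242, 227, 354, 343 and 139 CPM in old adipocytes, against 78.8, 39.3 and 77.3 CPM in young adipocytes (log2 fold change 2.00 ± 0.34 (SE), adjusted p = 0.00363), and Tagln of the same pericyte and smooth muscle list was higher too (1.50 ± 0.33, adjusted p = 0.0139). These were 2 of 7 measured genes of that list, which summed to 533 to 739 CPM in old libraries and 198 to 295 CPM in young libraries. Jchain, of plasma cells, had 47.1, 50.4, 51.6, 37.7 and 211 CPM in old adipocytes, against 22.98, 11.1 and 6.81 CPM in young adipocytes (log2 fold change 2.55 ± 0.64 (SE), adjusted p = 0.0253). S100a8, of neutrophils (1.95 ± 0.46, adjusted p = 0.019), S100b, of Schwann cells and also of adipocytes (1.84 ± 0.52, adjusted p = 0.0408), and Cela1, an elastase of the pancreas (1.95 ± 0.39, adjusted p = 0.00857), were higher. Plasma cells and neutrophils had 1 call among 3 measured genes each, and Schwann cells and the pancreas 1 measured gene each. The last 3 genes named were lowest in old replicate 5 among the old libraries. The acinar genes Pnlip and Ctrb1 were at 0 in all 8 libraries, as were Ms4a2 of mast cells, Sox10 of Schwann cells and Ckm of muscle. In the remaining marker lists 0 genes passed by edgeR's quasi-likelihood test. Of 3 measured mast cell genes 3 had an unadjusted p under 0.05 and 1 passed by DESeq2, as higher. Of 4 erythroid genes 4 had an unadjusted p under 0.05 and 2 passed by DESeq2, as higher. The erythroid list summed to 1077 to 2872 CPM in old libraries and 496 to 1230 CPM in young libraries. The dendritic cell, natural killer cell and skeletal muscle lists and the sex-linked genes had 2 measured members each and the B cell list 1, of which 0 had an unadjusted p under 0.05 and 0 passed by DESeq2. Calls were lost for Jchain without young replicate 2 or 3 (adjusted p = 0.105 to 0.128), S100a8 without young replicate 1 or 2 (adjusted p = 0.0898 to 0.0948), S100b without old replicate 1, 2, 3 or 4 or young replicate 2 or 3 (adjusted p = 0.052 to 0.182), Cela1 without young replicate 2 (adjusted p = 0.0682) and Tagln without young replicate 1 or 2 (adjusted p = 0.0559 to 0.0764).

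Fat progenitors, the other cell type sorted from visceral fat, were used to ask whether the age change differed between adipocytes and their tissue neighbours. They had 3 old and 4 young libraries from animals of the same ages and background. Of 14185 genes tested, 322 (2.27%) had a more positive age change in adipocytes and 165 (1.16%) a more negative one, 3.43% in all. Progenitors alone gave 44 higher and 25 lower of 12885 (0.341% and 0.194%, together 0.536%). Of the 811 genes higher in old adipocytes, 266 had a more positive and 1 a more negative change than in progenitors. Of the 586 lower genes, 137 had a more negative change and 0 a more positive one. Both tests use the same adipocyte libraries, so these counts are not independent of the calls.

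Among the 112 called named genes, 38 differed from progenitors in this test. Trdn differed by 5.74 ± 0.66 (adjusted p = 7.53e-05), with a log2 fold change of 5.17 in adipocytes, against -0.56 in progenitors. Map1a differed by 5.59 ± 0.62 (adjusted p = 7.53e-05), Mrc2 by 5.49 ± 0.72 (adjusted p = 0.000252) and Thsd7a by 3.32 ± 0.42 (adjusted p = 0.000175). Of the lower genes, Fam13a differed by -3.14 ± 0.50 (adjusted p = 0.00182), Acaca by -1.84 ± 0.48 (adjusted p = 0.0399) and Nr1d1 by -3.31 ± 0.57 (adjusted p = 0.00317). Nr1d1 had a log2 fold change of -1.37 in adipocytes, against 1.89 in progenitors. Macrophage genes differed as well: Trem2 by 4.39 ± 0.57 (adjusted p = 0.00023) and Mpeg1 by 4.09 ± 0.56 (adjusted p = 0.000377), and 8 of the 12 macrophage markers passed. Ctss differed by 3.82 ± 0.43 (adjusted p = 7.53e-05), the only 1 of 9 MHC class II genes tested that passed. The MHC class II list had a median log2 fold change of 2.76 over 7 genes in progenitors, with 0 called, beside 2.77 in adipocytes. The median difference of that list was 0.13. The call ended for Acaca without young adipocyte replicate 1, 2 or 3, old progenitor replicate 1 or 3 or young progenitor replicate 1, 2, 3 or 4 (adjusted p = 0.0552 to 0.0942). For Cfd (-2.36 ± 1.18, adjusted p = 0.298), Lep (-1.12 ± 1.07, adjusted p = 0.637) and Sfrp5 (1.07 ± 2.01, adjusted p = 0.833) no difference between the cell types was shown.

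**Figure D5:**
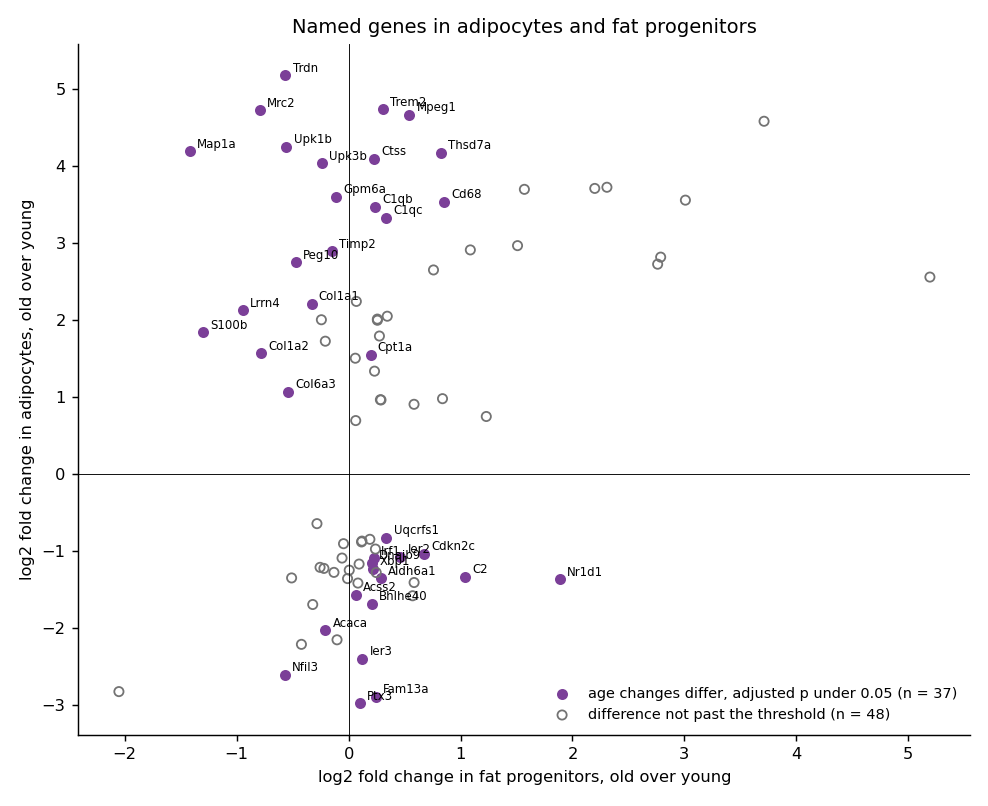
Log2 fold change, old over young, in adipocytes (vertical axis) against fat progenitors (horizontal axis) for the 85 named genes called in adipocytes and tested in both. Filled, labelled points (n = 37) had age changes that differed between the cell types, and open points (n = 48) did not pass that test.

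The genes with the largest positive differences were low in adipocytes. Mfap4, a matrix protein, had 3.08, 2.46, 0, 1.51 and 3.47 CPM in old and 0 in all young adipocytes, and 21.1, 22.2 and 16.97 CPM in old and 72.2, 50.1, 63.02 and 45.8 CPM in young progenitors (adjusted p = 0.00862). Dkk3, a secreted glycoprotein, had 3.08, 4.61, 1.99, 4.84 and 7.26 CPM in old and 0 in all young adipocytes, and 26.2, 39.02 and 11.8 CPM in old and 22.2, 22.5, 24.9 and 24.4 CPM in young progenitors (adjusted p = 0.0162). Cyp2s1, a cytochrome P450, Wfdc1, a secreted protease inhibitor family member, and Cx3cr1, the fractalkine receptor, had means of at most 4.30 CPM in old adipocytes, and at most 1 count in young ones. The differences did not all withstand leaving out a library, and that call ended for Dkk3 without young adipocyte replicate 2 (adjusted p = 0.065), Cyp2s1 without young adipocyte replicate 2 (adjusted p = 0.0583) and Cx3cr1 without young adipocyte replicate 1, 2 or 3 or old progenitor replicate 1 (adjusted p = 0.05 to 0.0868). In all 5 the mean of progenitors exceeded that of adipocytes at both ages. In adipocytes the progenitor markers summed to 774 to 3803 CPM in old libraries and 357 to 425 CPM in young libraries, and their part in these differences was not tested.

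The largest negative differences were of several forms. Bmp3, a bone morphogenetic protein, had 221, 221, 359.5, 307 and 93.2 CPM in old and 301, 99.3 and 221 CPM in young adipocytes, and 26.2, 46.6 and 15.1 CPM in old and 0, 2.04, 0.888 and 1.51 CPM in young progenitors (difference -4.32 ± 0.74, adjusted p = 0.00317). Its groups overlapped in adipocytes and not in progenitors. Snhg11, a long non-coding RNA, had 30.4, 35.02, 27.8, 21.2 and 12.6 CPM in old and 51.9, 78.3 and 94.5 CPM in young adipocytes, and 32.7, 30.05 and 45.99 CPM in old and 11.1, 13.3, 7.69 and 9.51 CPM in young progenitors (difference -3.39 ± 0.42, adjusted p = 0.000172). It was lower in old adipocytes and higher in old progenitors, past the threshold in each. Ccl5 (-3.97 ± 0.86, adjusted p = 0.0152) and Nkg7 (-3.90 ± 0.87, adjusted p = 0.0181), genes of cytotoxic lymphocytes, did not pass in adipocytes alone. Ccl5 had 479, 520.3, 425, 394 and 507 CPM in old and 459.7, 578 and 529.9 CPM in young adipocytes, beside the T cell markers given above, whose part in this was not tested. Dusp4, a phosphatase of MAP kinases, had 18.8, 17.5, 17.9, 14.2 and 8.53 CPM in old and 39.5, 27.8 and 24.9 CPM in young adipocytes and under 1 CPM in every progenitor library (difference -3.61 ± 0.92, adjusted p = 0.0359). Single libraries decided 3 of these calls, which ended for Ccl5 without old progenitor replicate 2 or young progenitor replicate 4 (adjusted p = 0.0536 to 0.0729), Nkg7 without old progenitor replicate 2 or young progenitor replicate 4 (adjusted p = 0.0575 to 0.203) and Dusp4 without young adipocyte replicate 1 or 2, old progenitor replicate 1 or 2 or young progenitor replicate 1, 2, 3 or 4 (adjusted p = 0.0519 to 0.147). Without old progenitor replicate 2 the differences of Ccl5 and Nkg7 were -2.07 and -2.36.

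The same test was run in each of the other 22 cell types of the survey. Fasn and Acaca, both lower in old adipocytes, were tested in all 22 and passed in 0 by edgeR's quasi-likelihood test. An unadjusted p under 0.05 was found in 2 for Fasn and 0 for Acaca. DESeq2 was not run in these cell types. Against fat progenitors, the age change differed for 2 of 14 lipogenesis genes, Acaca and Acss2, and Fasn did not pass. MHC class II genes passed elsewhere too: H2-Ab1 was higher with age in 7 of 19 cell types and H2-Eb1 in 6 of 19. Jchain was higher in 8 of 12, Lyz2 in 6 of 20 and Ctss in 4 of 17. Differences between adipocytes and these cell types were not tested, other than for fat progenitors. The share of all genes that passed in each cell type is not given beside these counts, except for progenitors (0.536%). Whether a count is high or low for its cell types can therefore not be read from it.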

How the data were processed

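Poly(A) RNA of sorted cells was sequenced from its 3′ end, and reads carried a molecular identifier (10 bp) besides the index of the sample (8 bp), per the labels' protocols. No source used here says if the identifiers served to collapse copies. Software named in the submitters' processing notes is STAR, featureCounts 2.0.1 and, in the protocols, sabre 80faf94, with GRCm38.p6 and mm10 as builds. The authors deposited whole-number counts per gene, not normalized, for 55484 genes in 170 libraries. Groups follow the titles.

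Old and young adipocytes were fitted in edgeR 4.0.16 (R 4.3.3; glmQLFit and glmQLFTest) with TMM scaling after filterByExpr with a minimum count of 10. The age change was compared with that in fat progenitors by an interaction term in a joint fit, on its own scaling. DESeq2 1.42.0, RLE size factors, a minimum count of 30, no filter, the replicate number as a block and leaving out each library were alternatives. Coordinates and types come from GENCODE M21 on GRCm38, which matched 12216 of 12387 genes (98.6%). The script was tested on simulated data.

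The members and the 25 gene lists and 20 marker lists were chosen with earlier results of these data known. Named genes were the 3 markers, the 12 highest and 12 lowest called genes whose higher group averaged 20 CPM or more and whose libraries did not overlap, up to 4 called members per list by adjusted p, the 2 most abundant of lists with 0 called, and the 5 highest and 5 lowest in the interaction with at least 20 CPM in a group. Sex-linked genes, unnamed models, pseudogenes, antisense genes and receptor segments were left out of the rule. The values of 1 gene that the rule named are not reported here.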

Additional observations from a re-analysis of the deposited data

Results flagged for a closer look

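Of 145 values per library over the old adipocytes, 35 had a library far from the other 4, and 34 of these were old replicate 5. By chance about 1 in 20 such groups would show one, and these values share the same library, so they are not separate observations. Old replicate 5 lay far below the other old libraries, in CPM, for Adipoq (1248), Plin1 (207), Cidec (1064), Retn (602), Rbp4 (292), Acaca (20.8), Fasn (103), Hk2 (40.7) and Alb (16.8). Its summed CPM was low for the markers of adipocytes (2519) and hepatocytes (20.5). It lay far above them for genes of macrophages and antigen presentation, Atp6v0d2 (170.4), Mpeg1 (171), C1qb (592), C1qc (607), Ctss (916), H2-Eb1 (401), H2-Ab1 (645), Cd68 (437) and Lyz2 (3073). The same held for Timp2 (254), Ccl9 (295), Ccl6 (1219), Ccl8 (369), Dpp4 (80.8), Dcn (2712), Gpm6a (43.4) and Jchain (211). Its summed CPM was high for the markers of the following cell types: progenitor and fibroblast (3803), mesothelial (302), macrophage (5821), mast cell (92.7), B cell (71.3) and plasma cell (242). The remaining value was Mup9 in old replicate 2 (2.61 CPM), a low count among near-identical genes.

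For 38 of the named genes called in adipocytes, the log2 age change in adipocytes minus that in fat progenitors passed edgeR's interaction test, in 3 old and 4 young progenitor libraries. The difference was positive for the macrophage genes Trem2 (4.39), Mpeg1 (4.09), C1qb (3.19), C1qc (2.95), Ctss (3.82) and Cd68 (2.64), the mesothelial genes Upk3b (4.23), Gpm6a (3.66), Lrrn4 (3.02) and Upk1b (4.77) and the matrix genes Col1a1 (2.51), Col1a2 (2.32), Timp2 (3.01) and Col6a3 (1.59). It was also positive for Rnf128 (4.10), Trdn (5.74), Mrc2 (5.49), Map1a (5.59), Thsd7a (3.32), Cpt1a (1.32), Peg10 (3.19) and S100b (3.12). It was negative for Fam13a (-3.14), Acaca (-1.84), Acss2 (-1.66), Aldh6a1 (-1.67) and Uqcrfs1 (-1.19), and for the clock genes Nfil3 (-2.06), Nr1d1 (-3.31) and Bhlhe40 (-1.90). The other negative differences were those of Ptx3 (-3.09), C2 (-2.40), Irf1 (-1.34), Cdkn2c (-1.73), Ier2 (-1.56), Ier3 (-2.55), Xbp1 (-1.48) and Dnajb9 (-1.40). Leaving out 1 library at a time ended the call, for at least 1 library each, for Rnf128, Ptx3, Acaca, Acss2, Aldh6a1, Cpt1a, Uqcrfs1, Col6a3, Irf1, Cdkn2c, Ier3, Xbp1, Dnajb9, Bhlhe40, Peg10, Upk3b, Gpm6a, Lrrn4, Upk1b and Cd68 (adjusted p = 0.0505 to 0.172 where lost).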

How the results depend on the processing

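In adipocytes 1397 genes passed (811 higher, 586 lower), and leaving out each library gave 457 to 2001 genes, 296 to 1152 higher and 161 to 849 lower, in each case lowest without young replicate 2 and highest without old replicate 5. With no filter on low counts 1426 were higher, of 33959 tested. DESeq2 (1897), RLE size factors (1396), a minimum count of 30 (1284) and the replicate block (1238) kept the total within 1.5 times. For adipocytes minus fat progenitors 487 genes passed (322 positive, 165 negative). DESeq2 gave 818 (523 and 295), no filter 893 (640 and 253), and leaving out each library 168 to 713 genes, 116 to 446 positive and 52 to 323 negative, fewest without young adipocyte replicate 2. The replicate block gave 164 (135 and 29). Same-numbered old and young adipocyte libraries had deviations that correlated at -0.085, 0.026 and -0.109, so the numbers were not taken as pairs, and 1 of 3 old libraries correlated best with its own number. Mean Adipoq in young adipocytes was 5806 CPM on total counts, against 6608 CPM on scaled library sizes. Insig1, which did not pass, had a log2 fold change of -0.16 with all libraries, and leaving out each gave -0.46 (without old replicate 3) to 0.52 (without young replicate 1). The cause of each of these shifts was not tested. Of 112 called named genes 65 passed under every alternative and 47 lost the call under at least 1, all with the same sign. Of 48 genes named from the test against progenitors 21 passed under every alternative and 27 lost the call, with the same sign. With 2068616 to 3467844 counts per library and 3 young libraries, a gene that did not pass may still differ.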

Other observations

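Ribosomal RNA gene CT010467.1 took 2.32% to 3.54% of counts in old and 1.09% to 1.51% in young adipocyte libraries. The immunoglobulin gene Igkc took 0.567% of counts in old replicate 5 and at most 0.0709% in any other old library, against at most 0.0112% in young libraries. Scaling factors were 1.01 to 1.21 in old and 0.867 to 0.908 in young libraries. Old and young libraries did not overlap in any of these 3 quantities, and their part in the age differences was not tested.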
